A study of Mus musculus with 8 samples.

Results

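The genes described here are 28 of the 27453 genes with transcripts in the count files. They encode enzymes that turn acetyl-CoA into cholesterol, proteins that sense sterols and switch those enzymes on or off, and proteins that store or move the cholesterol made. The members were chosen by name for their place in the pathway, with earlier results of these data known. Their contrast with all tested genes is therefore a description and not an independent test. Every transcript of each gene was summed to 1 read count per library. Not every enzyme of the pathway is analysed here.

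The data are direct RNA sequencing of mouse liver, in which poly(A) RNA molecules are read one by one on a nanopore without conversion to cDNA. There were 8 libraries of strain C57BL/6JN, 4 with titles that begin with O and 4 with titles that begin with Y, and in each set replicates 1 and 2 were male and replicates 3 and 4 female. The labels give no allele, diet or agent, they call the old animals the treated group, and the animal identifiers name 8 different mice. The study's design text puts the young animals at roughly 2 months and the old ones at roughly 18 months, but the age field reads 12 weeks for the O-titled libraries and 80 weeks for the Y-titled ones, the reverse of what the initials would mean, so the groups are called O-titled and Y-titled throughout and no age direction is drawn.

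The later steps of cholesterol synthesis take place in the endoplasmic reticulum. The mevalonate steps make isoprene units, the prenyl steps join them into squalene, and squalene is folded into lanosterol and trimmed into cholesterol. When the endoplasmic reticulum is poor in sterol, Scap carries the SREBP2 protein (gene Srebf2) to the Golgi, where the proteases Mbtps1 and Mbtps2 free its transcription factor domain, which acts on many genes of the pathway. Insig1 holds Scap back when sterol is plentiful, and the liver is a main site of this synthesis.

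Mapped reads ranged from 792004 to 2593200 in the O-titled libraries and from 545171 to 1722220 in the Y-titled ones. The mean read length was 1185 ± 31 bases (SD, n = 4) and 1207 ± 32.9 bases, with overlapping ranges of 1156 to 1223 and 1168 to 1235 bases. The difference did not pass a two-sided exact permutation test (p = 0.286), which with 4 libraries per group does not show equal lengths. All 6 hepatocyte markers were read, and their summed level was 71208 to 98256 CPM (read counts scaled to a common library size) in the O-titled libraries and 74008 to 115970 CPM in the Y-titled ones. Of the marker lists of other liver cell types, that of stellate cells did not overlap between the groups, with a sum of 228 to 286 CPM in the O-titled libraries and 162 to 213 CPM in the Y-titled ones. Of its genes Dcn passed (175 against 117 CPM, edgeR adjusted p = 0.00956), while Col3a1 (15.96 against 23.48 CPM) and Rgs5 (17.7 against 20.4 CPM) had lower O-titled means and did not. Of the endothelial genes Fcgr2b passed (68.49 against 45.02 CPM, edgeR adjusted p = 0.049). Clec4g, Cdh5 and Kdr had higher O-titled means and did not pass. Stab2 (21.9 against 23.4 CPM) and Pecam1 (11.1 against 12.5 CPM) had lower O-titled means and did not pass, and Lyve1 (3.52 against 8.78 CPM) was below the filter. The Kupffer cell list summed to 297 to 736 CPM against 342 to 413 CPM and the endothelial list to 205 to 247 CPM against 154 to 229 CPM, and no marker was at 0 in all libraries. In whole liver, a change in the number of cells of a type and a change in RNA per cell cannot be told apart, and the part of these lists in the results below was not tested.

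Promoter sequences are shown first because members of this pathway are known to share binding sites for SREBP2 and for its partner NF-Y. RefSeq promoters (build GRCm38.p6, 250 bases before to 50 bases after the annotated start, at most 500 bases from the start of the member's most-read transcript) were found for 22 of the 28 members. Hmgcs1 is shown as the one among these 22 promoters that held the sterol regulatory element as searched, Mvk as the member with most CCAAT boxes, and Msmo1, Lss and Insig1 as members with a higher level in the O-titled libraries. The windows were chr13:119690101-119690400 (plus strand), chr5:114444019-114444318 (plus strand), chr8:64733529-64733828 (minus strand), chr10:76531355-76531654 (plus strand) and chr5:28071162-28071461 (plus strand). Each is printed 5′ to 3′ along the strand of its gene. Capitals mark CCAAT boxes, which read ATTGG when they lie on the opposite strand, and in Hmgcs1 also the sterol regulatory element TCACCCCAC.
Hmgcs1: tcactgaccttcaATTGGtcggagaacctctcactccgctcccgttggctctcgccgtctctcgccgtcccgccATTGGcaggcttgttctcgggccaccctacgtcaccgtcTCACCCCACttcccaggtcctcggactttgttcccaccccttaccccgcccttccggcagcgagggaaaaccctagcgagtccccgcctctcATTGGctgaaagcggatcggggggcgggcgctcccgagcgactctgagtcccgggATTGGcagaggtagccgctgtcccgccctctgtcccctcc
Mvk: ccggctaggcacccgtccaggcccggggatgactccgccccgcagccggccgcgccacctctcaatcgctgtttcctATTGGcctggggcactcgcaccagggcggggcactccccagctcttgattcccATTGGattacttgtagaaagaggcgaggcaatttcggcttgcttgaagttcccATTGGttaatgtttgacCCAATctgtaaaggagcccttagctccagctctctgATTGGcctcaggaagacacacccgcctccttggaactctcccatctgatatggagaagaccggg
Msmo1: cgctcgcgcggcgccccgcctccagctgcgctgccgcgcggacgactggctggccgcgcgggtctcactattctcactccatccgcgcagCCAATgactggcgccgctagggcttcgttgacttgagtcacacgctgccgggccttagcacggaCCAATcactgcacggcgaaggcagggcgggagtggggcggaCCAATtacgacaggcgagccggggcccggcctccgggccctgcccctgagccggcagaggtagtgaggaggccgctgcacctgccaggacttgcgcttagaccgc
Lss: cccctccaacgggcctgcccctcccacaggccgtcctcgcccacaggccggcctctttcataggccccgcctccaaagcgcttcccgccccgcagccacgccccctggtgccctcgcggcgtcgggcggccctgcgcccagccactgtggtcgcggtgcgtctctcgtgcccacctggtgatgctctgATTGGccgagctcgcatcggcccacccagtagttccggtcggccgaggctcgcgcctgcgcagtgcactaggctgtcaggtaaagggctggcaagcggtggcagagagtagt
Insig1: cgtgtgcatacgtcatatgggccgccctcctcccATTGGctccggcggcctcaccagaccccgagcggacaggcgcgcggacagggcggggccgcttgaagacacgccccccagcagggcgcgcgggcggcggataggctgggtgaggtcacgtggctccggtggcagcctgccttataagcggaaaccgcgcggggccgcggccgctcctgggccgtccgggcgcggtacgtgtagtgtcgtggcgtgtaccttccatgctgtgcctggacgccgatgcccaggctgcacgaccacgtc

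The search covered 4 motifs on both strands, and no 2 matches of different motifs shared a base. CCAAT, the NF-Y box, was in 17 of the 22 member promoters (77.3%) and in 2017 of the 5164 promoters found for tested genes (39.1%). GGGCGG, the Sp1 box, was in 19 (86.4%, against 66.8%), and CACGTG, an E-box, was in 4 (18.2%, against 10.9%). TCACNCCAC, the sterol regulatory element as searched, was in 1 member promoter (4.55%), that of Hmgcs1, and in 1.2% of the promoters of tested genes. The element in Hmgcs1 began 137 bases before the start, with CCAAT boxes on both sides of it. CCAAT was in 4 of the 5 promoters of members that passed the test between the groups and in 13 of the 17 of other members. At least 2 CCAAT boxes were in 1 of the 5 and in 10 of the 17. The promoter of Acat2, a member that passed, held no CCAAT. A match is a string of letters in this window and not a measured binding site.

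The cholesterol genes took a larger share of the reads in the O-titled libraries. The 28 members together made up 0.464 to 0.505% of mapped reads there and 0.259 to 0.431% in the Y-titled libraries, with means of 0.486 ± 0.0183% and 0.345 ± 0.0707% (SD, n = 4). Of the 26 members with enough reads to test, 7 were higher in the O-titled libraries, 0 were lower and 19 did not pass (edgeR quasi-likelihood test with sex as a covariate, Benjamini-Hochberg adjusted p of at most 0.05 over 6759 genes). In build mm10 the 7 were Acat2 (ENSMUSG00000023832, chr17:12942890-12960747, minus strand), Fdft1 (ENSMUSG00000021273, chr14:63145150-63179578, minus strand), Lss (ENSMUSG00000033105, chr10:76531588-76557138, plus strand), Msmo1 (ENSMUSG00000031604, chr8:64718139-64733792, minus strand), Sc5d (ENSMUSG00000032018, chr9:42251595-42264256, minus strand), Insig1 (ENSMUSG00000045294, chr5:28071363-28078662, plus strand) and Stard4 (ENSMUSG00000024378). Over all tested genes, 2.09% were higher and 1.92% were lower by the same rule. DESeq2 called 4 of the 7 (Fdft1, Msmo1, Sc5d and Insig1) and limma voom 4 (Fdft1, Msmo1, Sc5d and Stard4), and both found 0 lower. At an unadjusted p under 0.05 in edgeR, 13 members were higher and 1, Scap, was lower, and 16.2% of all tested genes passed in either direction.

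The fitted log2 difference was positive for 24 of the 26 members, with a median of 0.43, against 49.9% positive and a median of -0.00095 over all tested genes. Every O-titled library was above every Y-titled one for 7 members (Acat2, Fdft1, Lss, Msmo1, Nsdhl, Sc5d and Stard4), against 4.1% of all tested genes. The reverse order was seen for 0 members, against 4.62% of all tested genes. The number of calls was smaller in each fit that left out 1 library. Without O-titled replicates 1, 2, 3 and 4 it was 3, 2, 5 and 4, and without Y-titled replicates 1, 2, 3 and 4 it was 4, 4, 6 and 2. Fdft1 and Msmo1 were called in each of these fits. The fits also called members that did not pass in the main fit. These were Pmvk without O-titled replicate 3, and Sqle and Hsd17b7 without Y-titled replicate 3.

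**Figure D1:**
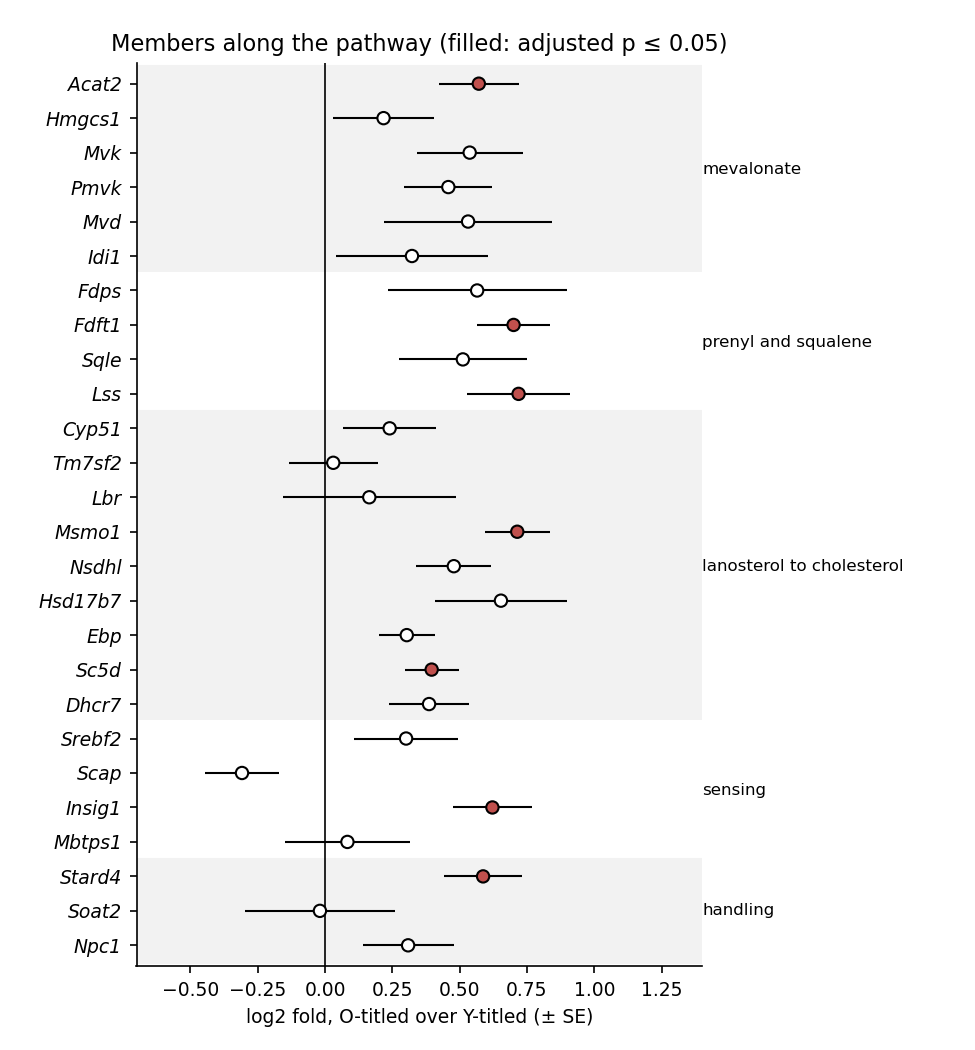
Fitted log2 difference of each tested member, O-titled over Y-titled (horizontal axis), with its standard error, ordered by step of the pathway, where filled points passed the adjusted test. Points for 24 of 26 members lie to the right of 0, and Scap and Soat2 lie to the left.

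The mevalonate steps join acetyl-CoA units and end in the isoprene unit isopentenyl diphosphate. Acat2, the cytosolic thiolase that makes acetoacetyl-CoA, was the one of 6 genes here that passed. Its level was 148, 141, 113 and 116 CPM in O-titled replicates 1 to 4 and 93.8, 61.4, 99.2 and 84.4 CPM in Y-titled replicates 1 to 4. The lowest O-titled library was above the highest Y-titled one. The means were 129 ± 17.8 and 84.7 ± 16.7 CPM (SD, n = 4), a log2 difference of 0.57 (SE 0.149, edgeR adjusted p = 0.0367), which lost its call in 5 of the 8 fits that left out 1 library (up to adjusted p = 0.123, without O-titled replicate 1). It was also lost with DESeq2 (adjusted p = 0.0683) and limma voom (adjusted p = 0.0609). Acat2 shared 50.5% of its 31-base sequences with the neighbouring paralogue Acat3, so reads may be split between them. Over all libraries Acat3 had 2254 reads and Acat2 1167, and the part of this in the difference was not tested.

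Hmgcs1, the enzyme that makes HMG-CoA, had the most reads of the mevalonate genes. It stood at 500, 399, 426 and 480 CPM in O-titled replicates 1 to 4. In Y-titled replicates 1 to 4 it was 402, 228, 523 and 420 CPM. The groups overlapped, since Y-titled replicate 3 was the highest of all 8 and replicate 2 the lowest. On the log2 scale the groups differed by 0.22 (SE 0.186, edgeR adjusted p = 0.644), with means of 451 ± 46.7 and 393 ± 122 CPM (SD, n = 4).

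The next 4 genes of this step did not pass either. In each range given here and below, the O-titled libraries come first. Pmvk, the second kinase of mevalonate, ranged over 89.4 to 134 CPM against 65.3 to 108 CPM (log2 difference 0.46, edgeR adjusted p = 0.144). Mvk, the first kinase, ranged over 25.5 to 41.3 CPM against 19.3 to 27.7 CPM (0.54, adjusted p = 0.157), and its highest Y-titled library lay above its lowest O-titled one. Mvd, which removes a carboxyl group, ranged from 22.6 to 45.5 CPM in the O-titled libraries and from 7.9 to 37.7 CPM in the Y-titled ones, where the lowest value rests on 4 reads (0.53, adjusted p = 0.460). Idi1, the isomerase of the isoprene unit, ranged over 261 to 398 CPM against 146 to 381 CPM (0.32, adjusted p = 0.668). All 6 genes had a positive difference, with a median of 0.49.

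In the prenyl and squalene steps, Fdft1 and Lss passed among 4 tested genes. Fdft1, squalene synthase, commits the pathway to sterols. It stood at 194, 176, 207 and 216 CPM in O-titled replicates 1 to 4 and at 131, 79.2, 138 and 133 CPM in Y-titled replicates 1 to 4. The groups did not overlap, and Y-titled replicate 2 lay far below its group. The log2 difference was 0.70 (SE 0.134, edgeR adjusted p = 0.00519), with means of 198 ± 17.2 and 120 ± 27.5 CPM. It stayed called in all 8 fits that left out 1 library (adjusted p up to 0.0231). The call was lost after thinning to the shallowest library (edgeR adjusted p = 0.0915) and in males alone (adjusted p = 0.0526). Fdft1 overlaps Ctsb, a cathepsin on the opposite strand, over 774 exon bases, and whether the counting used strand is not given in the sources used here.

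Lss, which closes squalene epoxide into lanosterol, was higher in the O-titled libraries. Its values were 39.2, 53.7, 39.1 and 39.2 CPM in O-titled replicates 1 to 4 and 20.8, 31.7, 29.4 and 23.3 CPM in Y-titled replicates 1 to 4. The groups did not overlap, and O-titled replicate 2 stood above the other O-titled libraries. On the log2 scale Lss differed by 0.72 (SE 0.192, edgeR adjusted p = 0.0423), with means of 42.8 ± 7.29 and 26.3 ± 5.09 CPM. The call was lost in 7 of the 8 fits that left out 1 library (adjusted p up to 0.202, without Y-titled replicate 1), with DESeq2 (adjusted p = 0.112) and with limma voom (adjusted p = 0.054).

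Fdps, which makes farnesyl diphosphate, had the most reads of these steps. The O-titled values were 717 and 903 CPM in the males and 442 and 501 CPM in the females. The Y-titled values were 417 and 261 CPM in the males and 559 and 450 CPM in the females. The O-titled males were the highest of the 8 libraries, and the O-titled females lay among the Y-titled libraries. The means were 641 ± 211 and 422 ± 123 CPM, and the log2 difference over both sexes was 0.57 (SE 0.332, edgeR adjusted p = 0.498). Neither the difference between the sexes in this comparison (adjusted p = 0.0739) nor that between females and males (adjusted p = 0.95) passed. Gm43738, annotated as a protein-coding gene on the same strand, overlaps Fdps over 1124 exon bases and shares 73.7% of its 31-base sequences. It had 14 reads in all libraries. The annotation also holds copies of Fdps that do not overlap it, such as Gm3571 (57.7%), which has no transcripts in the count files.

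Sqle, squalene epoxidase, the first oxygen-requiring step, stood at 113, 103, 116 and 127 CPM in O-titled replicates 1 to 4. In Y-titled replicates 1 to 4 it stood at 71.8, 33.7, 135 and 81.7 CPM. Y-titled replicate 3 was above every O-titled library, and replicate 2 rests on 17 reads. The difference was 0.51 (edgeR adjusted p = 0.329). Ggps1, which makes the geranylgeranyl chain for protein prenylation, was below the filter with 39 reads in the O-titled libraries and 20 in the Y-titled ones (two-sided exact permutation test, p = 0.143, adjusted p = 0.286).

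**Figure D2:**
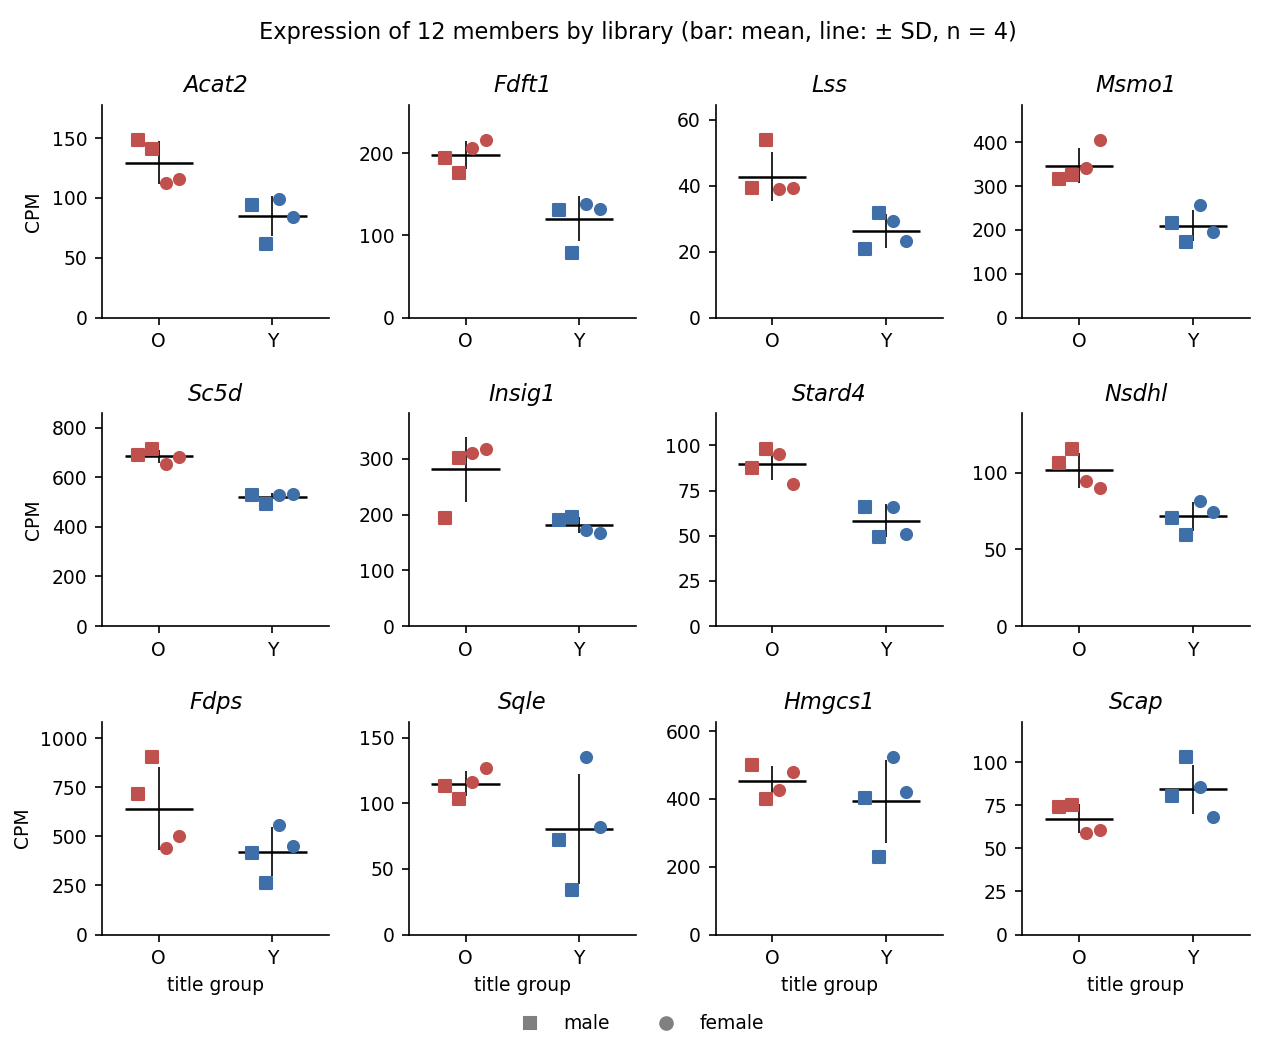
CPM of named members in each library, with the O-titled libraries on the left and the Y-titled ones on the right, males as squares and females as circles. Bars show the mean and SD of 4 libraries, and the panels for Acat2, Fdft1, Lss, Msmo1, Nsdhl, Sc5d and Stard4 show no overlap between the groups.

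From lanosterol to cholesterol, Msmo1 and Sc5d passed among 9 genes, and all 9 had a positive difference with a median of 0.39. Msmo1, the oxidase that starts removal of the C4 methyl groups, stood at 315, 325, 341 and 404 CPM in O-titled replicates 1 to 4 and at 216, 172, 256 and 196 CPM in Y-titled replicates 1 to 4. The groups did not overlap. The log2 difference was 0.71 (SE 0.120, edgeR adjusted p = 0.00189), with means of 346 ± 39.9 and 210 ± 35.6 CPM. It kept its call in all 18 alternative fits, with an adjusted p of at most 0.0423.

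Sc5d, the sterol desaturase that acts late in the pathway, had the most reads of these steps. Its values were 692, 715, 652 and 682 CPM in O-titled replicates 1 to 4 and 527, 493, 527 and 533 CPM in Y-titled replicates 1 to 4. The groups did not overlap. On the log2 scale Sc5d differed by 0.40 (SE 0.0997, edgeR adjusted p = 0.0300), with means of 685 ± 26 and 520 ± 18.3 CPM. The call was lost in 7 of the 8 fits that left out 1 library (adjusted p up to 0.0834, without Y-titled replicate 1).

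Nsdhl, the dehydrogenase that follows Msmo1, had no overlap between the groups but did not pass. It ranged from 90.3 to 116 CPM in the O-titled libraries and from 59.4 to 81.8 CPM in the Y-titled ones (log2 difference 0.48, SE 0.139, edgeR adjusted p = 0.0673). Hsd17b7, the ketoreductase that completes the demethylation, ranged over 44.3 to 67.2 CPM against 15.8 to 53.3 CPM (0.65, adjusted p = 0.192), and its groups overlapped through Y-titled replicate 3. Ebp, the sterol isomerase, ranged over 292 to 399 CPM against 246 to 322 CPM (0.30, adjusted p = 0.121). Dhcr7, the reductase that makes cholesterol from 7-dehydrocholesterol, ranged over 129 to 152 CPM against 71.3 to 133 CPM (0.39, adjusted p = 0.182).

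The other members of these steps had smaller differences. Cyp51, the lanosterol demethylase, ranged over 193 to 233 CPM against 115 to 242 CPM (log2 difference 0.24, edgeR adjusted p = 0.566). Tm7sf2 and Lbr both reduce the double bond that Cyp51 leaves, and they had 0.03 (adjusted p = 0.969) and 0.16 (adjusted p = 0.874). Tm7sf2 ranged from 167 to 299 CPM in the O-titled libraries, wider than the Y-titled range of 194 to 279 CPM. Lbr was read only 4 times in O-titled replicate 2.

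**Figure D3:**
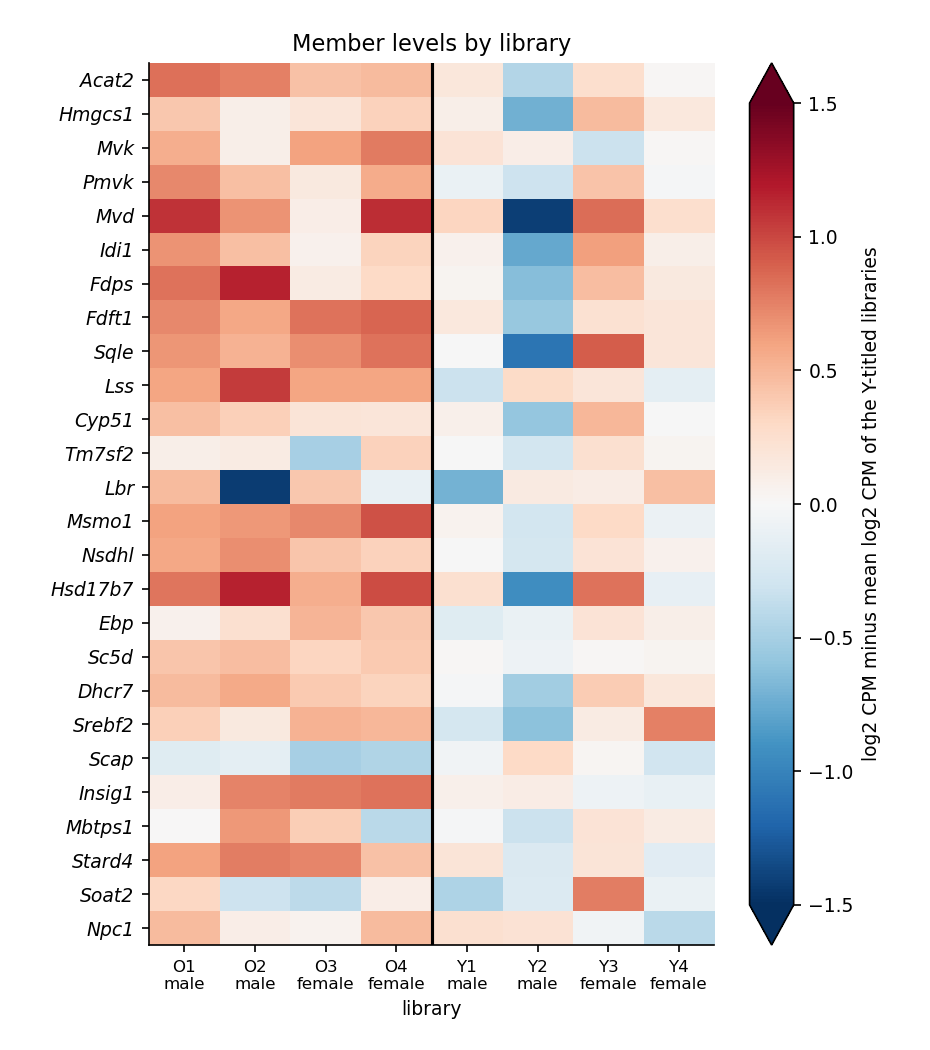
Log2 CPM of the 26 tested members in each library minus the mean log2 CPM of the 4 Y-titled libraries, with red above and blue below and the scale ending at 1.5 either way. Most O-titled cells are red, Y-titled replicate 2 is mostly blue and Y-titled replicate 3 mostly red.

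Among the sensing genes, Insig1 passed and the rest of the machinery did not. Insig1, the sterol-dependent anchor of Scap, stood at 193, 302, 311 and 318 CPM in O-titled replicates 1 to 4 and at 190, 196, 172 and 167 CPM in Y-titled replicates 1 to 4. O-titled replicate 1 lay within the Y-titled range and the other O-titled libraries above it. The log2 difference was 0.62 (SE 0.147, edgeR adjusted p = 0.0222), with means of 281 ± 59.0 and 181 ± 14 CPM. The call was lost in 5 of the 8 fits that left out 1 library (adjusted p up to 0.113, without Y-titled replicate 4) and with limma voom (adjusted p = 0.0634).

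Scap, the carrier of the SREBP proteins, had the lowest difference of the members. It stood at 73.8, 75.2, 59.0 and 60.9 CPM in the O-titled libraries and at 80.6, 103, 85.4 and 68.2 CPM in the Y-titled ones. Y-titled replicate 4 lay within the O-titled range. The fitted log2 difference was -0.31 (SE 0.138, edgeR adjusted p = 0.270). Srebf2, the transcription factor gene itself, ranged over 33.6 to 43.4 CPM against 19.8 to 51.2 CPM (0.30, adjusted p = 0.491), and its highest library was Y-titled replicate 4.

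The proteases had few reads. Mbtps1, which makes the first cut in SREBP, ranged over 16.8 to 34.9 CPM against 17.8 to 25.7 CPM (log2 difference 0.08, edgeR adjusted p = 0.925). Mbtps2, which makes the second, was below the filter with 28 reads in the O-titled libraries and 30 in the Y-titled ones (two-sided exact permutation test, p = 0.371).

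Of the 3 genes that handle made or imported cholesterol, Stard4 passed. Stard4, a soluble sterol carrier between membranes, stood at 87.6, 98.1, 95.5 and 78.4 CPM in O-titled replicates 1 to 4 and at 66.1, 49.5, 66.1 and 51.2 CPM in Y-titled replicates 1 to 4. The groups did not overlap. The log2 difference was 0.59 (SE 0.146, edgeR adjusted p = 0.0277), with means of 89.9 ± 8.86 and 58.2 ± 9.14 CPM. The call was lost in 5 of the 8 fits that left out 1 library (adjusted p up to 0.123, without Y-titled replicate 4) and with DESeq2 (adjusted p = 0.0672).

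Soat2, which esterifies cholesterol for storage and lipoproteins, had a log2 difference of -0.02 (edgeR adjusted p = 0.993), and Npc1, which exports cholesterol from lysosomes, had 0.31 (adjusted p = 0.406), with 44.3 to 59.6 CPM against 32.3 to 50.4 CPM. Soat2 was highest in Y-titled replicate 3, at 31.2 CPM, against 13.2 to 17.1 CPM in the other Y-titled libraries.

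Summed by step, the members from lanosterol to cholesterol came to 2144 ± 84.9 CPM in the O-titled libraries and 1651 ± 210 CPM in the Y-titled ones (SD, n = 4). The prenyl and squalene genes came to 1004 ± 196 and 654 ± 186 CPM, and the mevalonate genes to 1093 ± 130 and 872 ± 260 CPM. The sensing genes came to 419 ± 58.0 and 327 ± 9.72 CPM and the handling genes to 160 ± 6.98 and 121 ± 16.8 CPM. Insig1 alone made up 281 and 181 CPM of the sensing sums, and Stard4 89.9 and 58.2 CPM of the handling sums. Of the other sensing genes, Scap and Mbtps2 had lower O-titled means, and Srebf2 and Mbtps1 higher ones. The groups overlapped in the mevalonate, prenyl and sensing sums and not in the other sums.

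**Figure D4:**
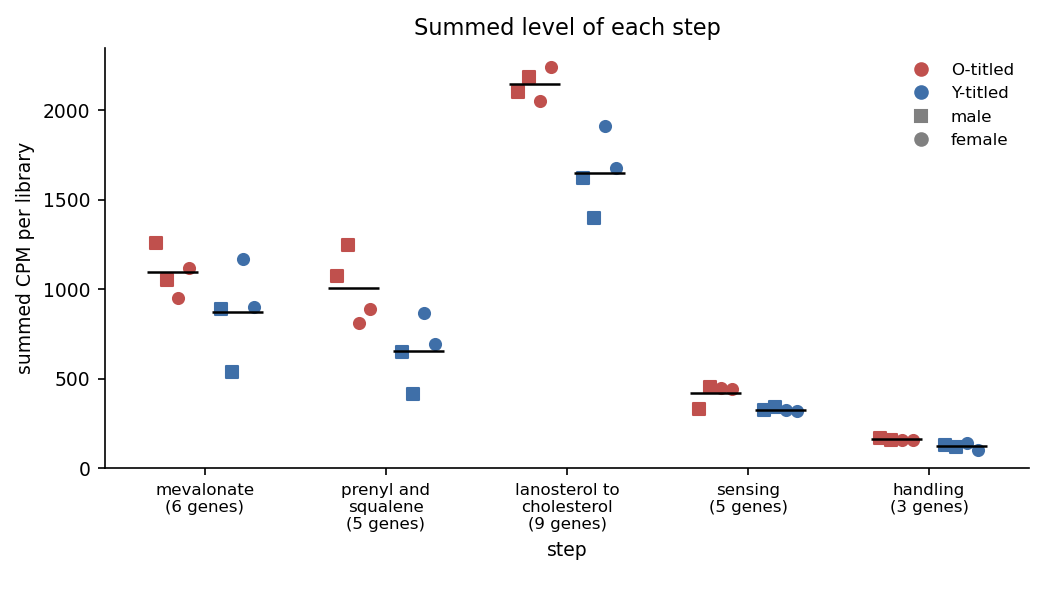
Summed CPM of the members of each step in each library, with squares for males, circles for females and bars for the mean of 4 libraries. The lanosterol to cholesterol sums lie between 2048 and 2240 CPM in the O-titled libraries and between 1398 and 1910 CPM in the Y-titled ones.

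The order of the Y-titled libraries was not the same in every step. Replicate 2 had the lowest sum in the mevalonate, prenyl and lanosterol steps and the highest in the sensing step, where the sums ran from 318 to 340.5 CPM. Replicate 4 had the lowest sum in the handling step, at 100.5 CPM. Counted by single members, Y-titled replicate 2, the shallowest library, was the lowest of its group for 18 of 26 members, against 30.7% of all tested genes. Y-titled replicate 3 was the highest of its group for 18 of 26, against 25.1% of all tested genes. Measured from the Y-titled mean on the log2 CPM scale, the median member stood at 0.03, -0.29, 0.24 and 0.04 in Y-titled replicates 1 to 4. In O-titled replicates 1 to 4 it stood at 0.51, 0.49, 0.40 and 0.42. Y-titled replicates 1, 2, 3 and 4 were at or above the lowest O-titled library for 8, 8, 15 and 11 of 26 members. The share of all tested genes was not computed for this count, so it is not read as a result about the members.

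The comparison was also made within each sex, with 2 libraries on each side. The male comparison holds Y-titled replicate 2, the lowest of its group for 18 of 26 members, and the female one Y-titled replicate 3, the highest for 18, and their part in the values was not tested. In males the difference was positive for 25 of 26 members with a median of 0.63, and 3 were called higher (Acat2, Fdps and Msmo1; 0.636% of all tested genes were). In females it was positive for 17 of 26 with a median of 0.16, and 3 were called higher (Fdft1, Msmo1 and Insig1; 2.74% of all tested genes were). Both O-titled males were above both Y-titled males for 19 of 26 members (20.3% of all tested genes), and both O-titled females above both Y-titled females for 11 (22.3%).

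The test of the difference between the sexes called 0 of 26 members (0.385% of all tested genes). DESeq2 called 1, Fdps. At an unadjusted p under 0.05 in edgeR there were 6 members, and the share of all tested genes at that level was not computed. The female difference was below the male one for 21 of 26 members, with a median of -0.50, against 51% and -0.0096 over all tested genes. For Fdps the log2 difference was 1.23 (SE 0.204) in males and -0.10 (SE 0.200) in females, and the difference between them, -1.33 (SE 0.285), had an edgeR adjusted p of 0.0739. Without Y-titled replicate 1 the test called 2, Fdps and Idi1. For Msmo1 it was 0.70 (SE 0.168) in males and 0.72 (SE 0.165) in females, a difference of 0.02 (SE 0.235). Only 2 libraries stood behind each sex and title.

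**Figure D5:**
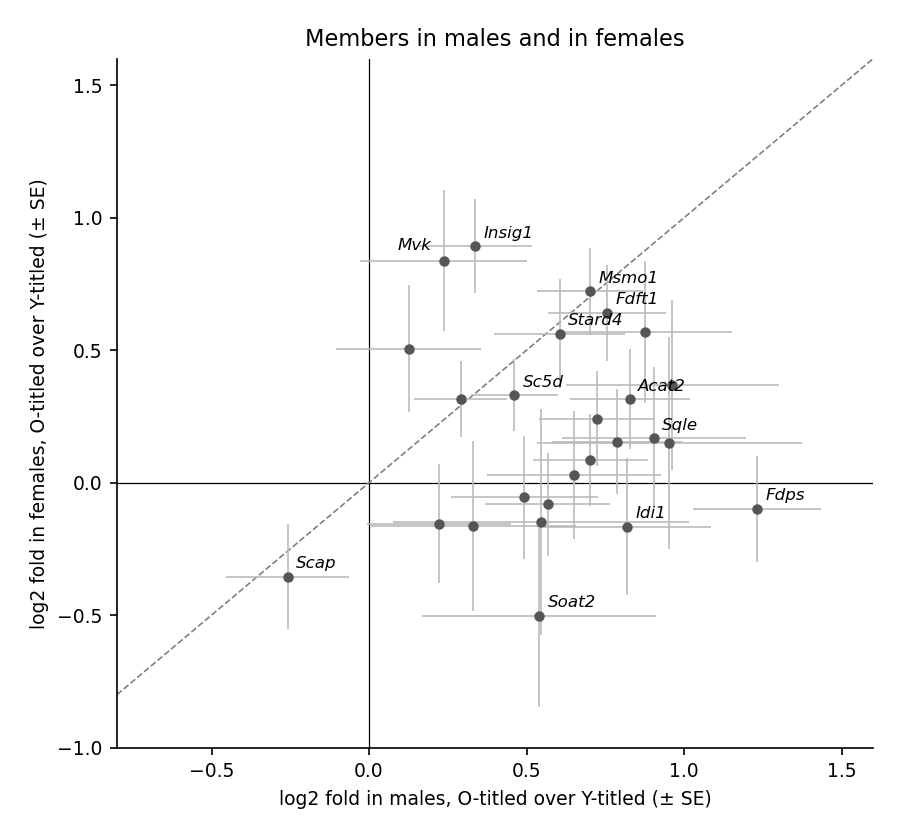
Fitted log2 difference, O-titled over Y-titled, in males (horizontal axis) and females (vertical axis) for each tested member, with the diagonal marking equal differences. Fdps lies farthest below the diagonal, at 1.23 in males and -0.10 in females, and Msmo1 lies beside it. Lines show the SE of each difference.

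Between females and males, with the title groups as a covariate, 0 members were higher and 0 lower (edgeR, against 1.81% and 1.15% of all tested genes). At an unadjusted p under 0.05 there were 2, Ebp and Srebf2, with log2 differences of 0.30 (adjusted p = 0.173) and 0.47 (adjusted p = 0.284), both higher in females. The share of all tested genes at that level was not computed here either. DESeq2 called 0.

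Long reads also gave the isoforms. Of 9 members with at least 2 tested transcripts, 0 were called for a change in transcript usage (edgeR diffSpliceDGE, Simes adjusted p = 1 each), 0 had an unadjusted p under 0.05, and 0% of all 1236 tested genes were called. For Fdps the main transcript took 65.5 ± 1.80% of the gene's reads in the O-titled libraries and 65.2 ± 1.82% in the Y-titled ones (SD, n = 4). For Hmgcs1 the main transcript took 55.9 ± 2.04% and 53.9 ± 1.29%. For Fdft1 it took 50.5 ± 1.84% and 52.9 ± 3.59%.

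The mean read length was lower in the O-titled than in the Y-titled libraries for 23 of the 26 tested members (88.5%), and for 72.8% of the 6724 tested genes with reads in all 8 libraries. Every O-titled library was below every Y-titled one for 1 member, Idi1, against 4.33% of those genes. Its reads averaged 1523 to 1605 bases in the O-titled libraries and 1628 to 1737 bases in the Y-titled ones. Reads spanned on average from 29.8% (Sc5d, O-titled) to 90.1% (Fdps, Y-titled) of the length of the member's main transcript. The part of read length in the level differences was not tested.

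The other genes of the pathway were counted by lists. Over all tested genes, 2.09% were higher and 1.92% lower in edgeR, and 16.2% had an unadjusted p under 0.05 in either direction. Of 11 genes that supply acetyl-CoA and NADPH, 2 were higher in the O-titled libraries, 0 lower and 9 did not pass, with a median log2 difference of 0.28; 3 had an unadjusted p under 0.05. Por, the reductase that gives electrons to Sqle and Cyp51, was 399 ± 199 against 149 ± 41.4 CPM (SD, n = 4; log2 difference 1.34, edgeR adjusted p = 4.25e-05). Aacs, which makes acetoacetyl-CoA from ketone bodies, was 78.1 ± 29.9 against 26.7 ± 7.82 CPM (1.42, adjusted p = 0.0242). Idh1, the most read that did not pass, was 481 ± 35.4 against 436 ± 38.0 CPM (0.14, adjusted p = 0.578).

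Of 16 partners in sterol sensing and degradation, 2 were higher, 1 was lower and 13 did not pass, with a median of 0.06. DESeq2 called 2 of the 16 and limma voom 3, and in edgeR 5 had an unadjusted p under 0.05. Srebf1, which encodes the SREBP1 proteins, was 297 ± 68.3 against 88.9 ± 24.4 CPM (log2 difference 1.76, edgeR adjusted p = 2.39e-07), and Insig2, the second Scap anchor, was 56.3 ± 20.7 against 218 ± 64.5 CPM (-2.0, adjusted p = 0.0266). Insig1 and Insig2 thus differed in opposite directions. Rnf145, a sterol-responsive ubiquitin ligase, was 21.2 ± 2.86 against 11.6 ± 4.67 CPM (0.97, adjusted p = 0.0489). Pgrmc1, the most read that did not pass, was 883 ± 100 against 916 ± 95.5 CPM (adjusted p = 0.904).

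Of 18 tested genes of uptake, esterification, transport and efflux, 1 was higher, 0 lower and 17 did not pass, with a median of 0.15. In DESeq2 and in limma voom the count was 0, and in edgeR 7 had an unadjusted p under 0.05, against 16.2% of all tested genes. The gene that passed was Lrp1, an endocytic lipoprotein receptor, at 228 ± 33.6 against 166 ± 20.7 CPM (log2 difference 0.46, edgeR adjusted p = 0.0429). Scp2, a sterol and lipid carrier and the most read of this list, was 2331 ± 757 against 2938 ± 838 CPM (-0.35, adjusted p = 0.0825). Of 12 tested genes of the isoprenoid branches that leave the pathway before squalene, 0 were higher or lower in edgeR, DESeq2 or limma voom, 3 had an unadjusted p under 0.05, and the median was -0.10. Zmpste24, the most read of them, was 50.2 ± 5.30 against 42.5 ± 9.63 CPM (0.17, adjusted p = 0.71).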

How the data were processed

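RNA of 8 livers was sequenced as direct RNA on MinION R9.4.1 flow cells after poly(A) selection and ligation of a 5′ adapter, per the labels' protocols. The deposited files give a read count per transcript and the mean length of its reads, as whole-number counts that the authors did not normalize, per the file headers. The mean length is another deposited value, in bases. Per the submitters' processing notes, minimap2 2.24, build mm10 and DESeq2 were used; the counting tool and annotation release are not given in the sources used here.

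Transcripts (53983) were summed to 27453 genes and matched to GENCODE M21 symbols. Genes were kept when their CPM, in enough libraries, reached that of 10 reads at the median library size (edgeR filterByExpr, 6759 genes). They were fitted with edgeR 4.0.16 in R 4.3.3 (TMM scaling, robust quasi-likelihood, sex as a covariate). Benjamini-Hochberg adjustment was made over all of them at 0.05. CPM uses the TMM-scaled library size, and SD is over 4 libraries. Members below the filter were tested by an exact permutation test on log2(CPM + 0.5), where CPM was taken per total mapped reads without TMM scaling. Transcript usage used diffSpliceDGE. Alternatives used DESeq2 1.42.0 and limma 3.58.1 (voom), other scalings, no filter, thinning to 545171 reads, 1 sex alone, the fit without sex and the replicate block; for transcript usage, leaving out each library was chosen after seeing the data. The scripts were tested on simulated data. A count of 3 reads, the floor, equals 1.16 to 5.50 CPM and covers counting error only.

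Same-sex libraries of a group differed by more than counting noise (chi-square over degrees of freedom 3.92 to 10.3). Replicate numbers did not pair the libraries. The members and lists were chosen with earlier results of these data known, so no test was made over a list. All 28 members are named; full values are given for those that passed, the most-read of each step and those below the filter, and of each other list those that passed (at most 3 per direction, the most abundant) and the most abundant that did not.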

Additional observations from a re-analysis of the deposited data

Results flagged for a closer look

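Within each group of 4 libraries, a tested member was singled out when the gap between its highest or lowest library and the next, as a share of the group's range, exceeded Dixon's 95% limit. Chance passes that limit in about 1 of 20 groups, and 4 of the 52 groups examined passed it. Fdft1 was 79.2 CPM in Y-titled replicate 2, against 131 to 138 CPM in the other Y-titled libraries. Sc5d was 492.9 CPM in the same library, against 527 to 533 CPM in the others. Lss was 53.7 CPM in O-titled replicate 2, against 39.1 to 39.2 CPM in the other O-titled libraries. Insig1 was 193 CPM in O-titled replicate 1, against 302 to 318 CPM in the others.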

How the results depend on the processing

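The number of members called higher in the O-titled libraries was 7, and it was 7 with RLE or upper quartile scaling. It was 4 with DESeq2, 4 with limma voom, 11 with no filter on low counts (28 members tested) and 3 without the sex covariate. It was 2 after thinning to the shallowest library (Msmo1 and Insig1), 3 in males alone and 3 in females alone. When 1 library was left out it ranged from 2 to 6. With the replicate block it was 2 (Fdft1 and Msmo1), although the numbers do not pair the libraries: deviations of same-numbered libraries correlated at -0.0649 and -0.0275. No member was called lower in any of these fits. Members whose difference differed between the sexes numbered 1 with DESeq2 and 0 to 2 when 1 library was left out, against 0. The number of members called between females and males, and for transcript usage, was 0 in every alternative run. The direction of single members reversed in 24 cases, none of a member that had passed. In females alone the log2 difference was -0.0559 for Hmgcs1, -0.17 for Idi1, -0.10 for Fdps, -0.0815 for Cyp51, -0.16 for Tm7sf2, -0.15 for Lbr and -0.16 for Mbtps1, and in males alone 0.54 for Soat2. After thinning it was -0.0408 for Mvk, -0.11 for Tm7sf2, -0.0871 for Srebf2 and 0.63 for Soat2. With limma voom it was -0.0017 for Tm7sf2 and 0.013 for Soat2. When 1 library was left out, Tm7sf2 ranged from -0.102 (without O-titled replicate 4) to 0.219 and was -0.0444 without Y-titled replicate 2. Lbr ranged from -0.309 (without O-titled replicate 1) to 0.359 and was -0.0988 without Y-titled replicate 1. Mbtps1 ranged from -0.0347 (without O-titled replicate 2) to 0.286 and was -0.0154 without O-titled replicate 3. Soat2 ranged from -0.342 to 0.313 (without Y-titled replicate 3) and was 0.0264, 0.161 and 0.0178 without O-titled replicates 2, 3 and 4. The causes were not tested, except that leaving out libraries, thinning and 1 sex alone leave fewer reads or samples. Depth limits the low genes: 3 reads were worth up to 5.50 CPM, and Mvd, Lbr, Ggps1 and Mbtps2 had libraries with 4 reads or fewer.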
